A study of Homo sapiens with 6 samples.

Results

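Aminoacyl-tRNA synthetases attach each amino acid to its own tRNA, the step that makes the genetic code readable by the ribosome. Most amino acids have a cytosolic enzyme, named with a final 1, and a separate mitochondrial enzyme encoded in the nucleus, named with a final 2, while GARS1 and KARS1 serve both compartments. In the cytosol several of the enzymes sit in a multi-synthetase complex held together by the scaffold proteins AIMP1, AIMP2 and EEF1E1. Uncharged tRNA activates the kinase GCN2 (EIF2AK4), which phosphorylates eIF2α and lets the transcription factor ATF4 be translated, and several cytosolic synthetase genes are known ATF4 targets. The 40 genes described here were chosen by name as members of that family. They were 18 cytosolic enzymes, 17 mitochondrial enzymes, the 2 enzymes of both compartments and the 3 scaffolds, out of 34834 genes with a quantified transcript.

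The libraries came from SKOV3, an established human ovarian cancer cell line grown in RPMI1640 with serum. One group of 3 libraries was transfected with 50 nM of a SMARTpool siRNA against the long noncoding RNA DNM3OS, and a second group of 3 with 50 nM of a non-targeting siRNA pool, both carried by Lipofectamine. Both groups were thus 1 cell line exposed to the same transfection reagent and siRNA dose, and no untransfected cells were analysed here. RNA was sequenced from TruSeq Stranded total RNA libraries after removal of ribosomal RNA, and the question the comparison addresses is which transcripts differ after DNM3OS is silenced.

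Few counts were quantified per library, 1610937 to 1995888 estimated counts each, and how many reads were sequenced was not examined. After scaling of the gene counts by TMM, 3 counts correspond to 1.37 to 2.07 counts per 1000000 (CPM). The 40 genes together held 1409 to 2082 counts per library, or 0.0925% to 0.114% of the counts on annotated genes. None of the 6 annotated DNM3OS transcripts was among those quantified, so the knockdown itself could not be checked in these values. Among 9 markers of the cell line, ERBB2 (311 to 872 counts) and KRT8 (1195 to 2566 counts) were clearly present, whereas WT1 and MUC16 stayed at 4 counts or fewer. Their sum ran from 2103 to 3256 in the knockdown and from 1740 to 3079 in the non-targeting libraries. Among 10 markers of blood, endothelium and liver, HBB and ALB were at 0, CD3E, CDH5 and VWF stayed at 4 counts or fewer, and PTPRC, the leukocyte surface phosphatase, held 91 to 148 counts. Their sum ran from 206 to 334 in the knockdown and from 218 to 258 in the non-targeting libraries. What these blood marker counts stand for was not tested.

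Knockdown library 1 stood apart. Its counts differed from those of every other library by a chi-square of 6.25 to 15.6 per degree of freedom, against 2.15 to 5.10 between the others. The 85 ribosomal protein genes, which are usually among the most abundant messages of a cell, held only 0.234% of the gene counts in that library, the lowest of the 6, and 0.323% to 0.547% in the others, with the highest in non-targeting library 1. A single gene, PLLP, held 15.7% to 22.2% of the counts. The strand setting of the quantification is not given in the sources used here, and the libraries carried strand information, so reads from a gene and from a gene on its opposite strand may not have been told apart. Whether the values of a gene stand for transcripts of its own strand was not tested, and all levels and fold changes below are of the values as deposited.

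The synthetase genes were measured by few counts each. The median gene had a mean of 24.9 counts per library, and the range ran from 0.333 for PARS2, the mitochondrial prolyl enzyme, to 184 for HARS1, the cytosolic histidyl enzyme. Cytosolic enzymes had a median of 35.8 counts and mitochondrial enzymes of 11. The filter on low counts kept 30 of the 40 genes for testing: 15 cytosolic, 10 mitochondrial, both dual enzymes and all scaffolds. The 10 genes below the filter included FARSA, QARS1, VARS1, FARS2, HARS2, LARS2, MARS2, PARS2 and VARS2. FARSA, the catalytic subunit of the cytosolic phenylalanyl enzyme, had 2, 5 and 3 counts in the knockdown libraries and 21, 1 and 14 in the non-targeting libraries. Its partner subunit FARSB passed the filter at 55, 14 and 14 against 33, 19 and 18 counts. QARS1, the glutaminyl enzyme, had 5, 7 and 7 counts against 23, 3 and 9. The other 8 had at most 11 counts in any library, and VARS1 and VARS2, the valyl enzymes of the cytosol and the mitochondria, had at most 3 and 1. In both FARSA and QARS1 the non-targeting libraries spanned the knockdown values, so no direction can be read from them.

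**Figure D1:**
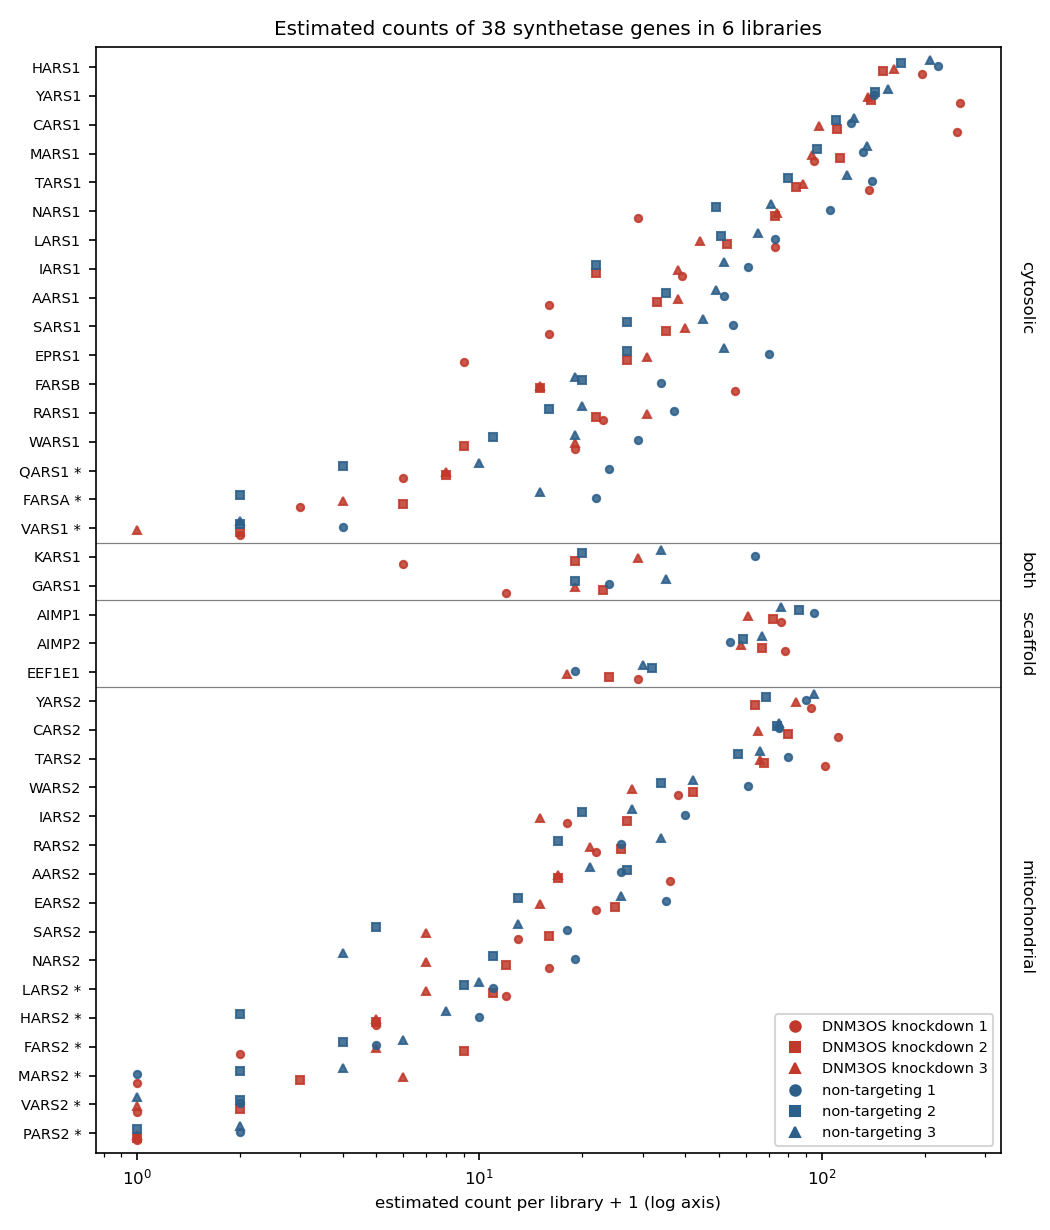
Estimated count plus 1 per library (horizontal log axis) for 38 of the 40 genes (vertical axis), grouped by compartment and ordered by mean count, with knockdown libraries in red and non-targeting libraries in blue and 1 marker shape per library number; asterisks mark genes below the low-count filter. Red and blue points intermix for nearly every gene, and knockdown library 1 is the leftmost point for EPRS1, AARS1, SARS1, NARS1, KARS1 and GARS1.

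Levels were compared between genes only per length, as TPM, a length-corrected level scaled to the same total in each library, summed over a gene's transcripts. RARS1, the arginyl enzyme, had the highest mean, 136 TPM, and read 212, 169 and 166 TPM in the knockdown libraries and 33.2, 81.3 and 156 TPM in the non-targeting libraries. That value rested on one transcript model of 177 bases, ENST00000626454, with 12, 8 and 7 counts against 0, 3 and 8. Without transcripts under 300 bases the mean level of RARS1 was 18.6 TPM, rank 22 of 40, and its groups overlapped. The short model alone therefore set both its rank and its separation between groups on the TPM scale. YARS1, the tyrosyl enzyme, followed with 113 ± 26.7 TPM in the knockdown and 96.7 ± 8.14 TPM in the non-targeting libraries (SD, n = 3 each). NARS1, the asparaginyl enzyme, had 91.0 ± 48.2 and 118 ± 25.2 TPM, and TARS2, the mitochondrial threonyl enzyme, 90.8 ± 18.9 and 71.6 ± 9.77 TPM. CARS2, the mitochondrial cysteinyl enzyme, had 85.9 ± 24.2 and 68.5 ± 6.80 TPM. MARS1, the methionyl enzyme, had 66.0 ± 21.5 and 76.9 ± 12.7 TPM. YARS1 and NARS1 did not differ beyond the SD of the libraries, and neither did TARS2 and CARS2 or CARS2 and MARS1. NARS1 lay above TARS2 beyond the SDs in the non-targeting libraries but was level with it in the knockdown libraries. AIMP2, HARS1, EEF1E1 and AIMP1 came next with means of 65.8, 52.8, 50.3 and 46.4 TPM. All 3 scaffolds were thus among the 10 highest genes, and PARS2 was the lowest at 0.12 TPM.

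No synthetase gene passed the test between knockdown and non-targeting libraries. With edgeR's exact test and Benjamini-Hochberg adjustment over all 11814 tested genes, 0 of the 30 tested synthetase genes had an adjusted p below 0.05 with at least a 2-fold difference, and all had an adjusted p of 1. Across all genes the same rule called 1 gene, or 0.00846%. At an unadjusted p below 0.05 the count was also 0 of 30, against 345 genes or 2.92% of all tested, and the smallest p among the synthetases was 0.0570, for EPRS1. DESeq2 on the same genes called 0, with 1 at an unadjusted p below 0.05. In direction, 21 of the 30 had a lower mean in the knockdown and 9 a higher one, with a median log2 fold change (knockdown minus non-targeting) of -0.20. Over all tested genes 49.4% were lower and the median was 0.0042. These are bulk cultures, in which fewer cells of a kind and less RNA per cell cannot be told apart.

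The cytosolic enzymes had a median log2 fold change of -0.23, with 11 of 15 lower. Their summed level was 574, 615 and 654 CPM in the knockdown and 767, 568 and 692 CPM in the non-targeting libraries, so the second control lay below every knockdown library. The mitochondrial enzymes had a median of -0.11, with 6 of 10 lower, and sums of 227, 265 and 234 CPM against 276, 217 and 251 CPM. Again the groups overlapped. The ratio of cytosolic to mitochondrial counts was 2.53, 2.32 and 2.79 in the knockdown and 2.78, 2.62 and 2.76 in the controls, so neither compartment stood apart from the other. A median over genes does not have its own error from replicates here, but the median deviation of the cytosolic genes from their means differed between libraries with an SD of 0.25 on the log2 scale, which is as large as the median difference. That deviation was lowest in knockdown library 1 (-0.26) and highest in non-targeting library 1 (0.48), the same libraries that were lowest and highest in ribosomal protein counts.

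These medians depended on single libraries. Without non-targeting library 1 the cytosolic median was -0.01 with 8 of 15 lower, without knockdown library 1 it was -0.14, and without non-targeting library 2 it was -0.36. The mitochondrial median was -0.0086 without non-targeting library 1, -0.03 without knockdown library 1, -0.05 without knockdown library 3 and -0.23 without knockdown library 2. With knockdown library 1 and non-targeting library 1 both left out, the cytosolic median was -0.0095 with 9 of 15 lower and the mitochondrial median 0.08 with 2 of 10 lower. That pair was chosen after seeing the data and holds the lowest knockdown and the highest control deviation of the cytosolic genes, so a shift towards 0 was fixed by the choice.

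The largest decreases in mean among the cytosolic enzymes belonged to EPRS1, AARS1 and IARS1. EPRS1, the fused glutamyl and prolyl enzyme of the multi-synthetase complex, had 8, 26 and 30 counts in the knockdown libraries and 69, 26 and 51 in the non-targeting libraries. Knockdown library 1 was far below the rest and non-targeting library 1 the highest, while the second libraries of each group were equal in counts. The log2 fold change was -1.06 (SE 0.77; two-sided exact permutation p = 0.3), and -0.57 without knockdown library 1. AARS1, the alanyl enzyme, had 15, 32 and 37 counts against 51, 34 and 48. Its log2 fold change was -0.57 (SE 0.55), and -0.15 without knockdown library 1. IARS1, the isoleucyl enzyme, had 38, 21 and 37 counts against 60, 21 and 51, a log2 fold change of -0.44 (SE 0.46), and -0.37 without that library. All of these groups overlapped.

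KARS1 and GARS1, the enzymes used in cytosol and mitochondria, both had lower means. KARS1, the lysyl enzyme, had 5, 18 and 28 counts against 63, 19 and 33, a log2 fold change of -1.02 (SE 0.88), and -0.50 without knockdown library 1. The lowest value was knockdown library 1 and the highest non-targeting library 1, while the rest of both groups intermixed. GARS1, the glycyl enzyme, had 11, 22 and 18 counts against 23, 18 and 34, a log2 fold change of -0.50 (SE 0.47). All of its counts lay on transcripts that overlap GARS1-DT, a long noncoding gene on the other strand.

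Among the mitochondrial enzymes the largest decreases in mean were those of IARS2, WARS2 and EARS2. IARS2, the isoleucyl enzyme, had 17, 26 and 14 counts against 39, 19 and 27, a log2 fold change of -0.54 (SE 0.39), and -0.29 without knockdown library 1. WARS2, the tryptophanyl enzyme, had 37, 41 and 27 counts against 60, 33 and 41 (log2 fold change -0.34, SE 0.28). EARS2, the glutamyl enzyme, had 21, 24 and 14 counts against 34, 12 and 25, a log2 fold change of -0.25 (SE 0.41). In all of them non-targeting library 1 was the highest and non-targeting library 2 lay inside or below the knockdown range. Without knockdown library 1 the log2 fold changes of WARS2 and EARS2 were -0.18 and -0.10.

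YARS1 and TARS2 were the only tested synthetase genes whose 3 knockdown values all lay above the 3 non-targeting values in CPM, 2 of 30, and none lay wholly below. Over all tested genes 4.42% lay wholly above and 3.56% wholly below, so the share among the synthetases was close to that of genes in general. YARS1 had 252, 138 and 136 counts against 141, 142 and 155. Scaled to library size this was 102 ± 13.3 CPM in the knockdown and 88.2 ± 6.85 CPM in the controls (SD, n = 3 each), a log2 fold change of 0.22 (SE 0.12). Without knockdown library 1 the log2 fold change of YARS1 was 0.11. Its two-sided exact permutation p was 0.1, the smallest that 3 against 3 allows. TARS2 had 101, 67 and 65 counts against 79, 56 and 65, or 45.9 ± 0.912 and 39.97 ± 4.43 CPM (SD, n = 3 each), a log2 fold change of 0.20 (SE 0.089; exact permutation p = 0.1). In TPM the groups overlapped for both genes, since YARS1 in non-targeting library 2 (106 TPM) exceeded knockdown libraries 2 and 3 (101 and 94.0 TPM) and TARS2 in non-targeting library 3 (81.4 TPM) exceeded knockdown library 3 (75.6 TPM).

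The other increases in mean were small or came from 1 library. CARS1, the cysteinyl enzyme, had 247, 110 and 97 counts against 121, 109 and 123, a log2 fold change of 0.28 (SE 0.23) and 0.02 without knockdown library 1. FARSB had a log2 fold change of 0.13 (SE 0.49), which was -0.52 without knockdown library 1. CARS2 had 111, 79 and 64 counts against 74, 73 and 74, a log2 fold change of 0.17 (SE 0.09), and SARS2, the mitochondrial seryl enzyme, 12, 15 and 6 counts against 17, 4 and 12, a log2 fold change of 0.02 (SE 0.55). Further tested genes lay between these ends, with log2 fold changes of -0.39 for SARS1, the cytosolic seryl enzyme, -0.24 for NARS1, -0.14 for RARS2, the mitochondrial arginyl enzyme, and 0.10 for RARS1. In CPM knockdown library 1 was the highest library for CARS1, FARSB, YARS1 and TARS2.

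The scaffolds did not move together. AIMP1, from which the cytokine EMAP II is cleaved, had 75, 71 and 60 counts against 94, 85 and 75, a log2 fold change of -0.30 (SE 0.16) with the lowest control equal to the highest knockdown count. EEF1E1 had 28, 23 and 17 counts against 18, 31 and 29, a log2 fold change of -0.23 (SE 0.29). AIMP2 had 77, 66 and 57 counts against 53, 58 and 66, a log2 fold change of 0.17 (SE 0.14). Over the 10 tested members of the multi-synthetase complex 8 were lower with a median of -0.23. Over the 9 tested cytosolic enzymes outside it 6 were lower, also with a median of -0.23. The structural classes gave similar counts. Class I enzymes had 9 of 13 lower (median -0.17) and class II enzymes 9 of 13 lower (median -0.16).

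**Figure D2:**
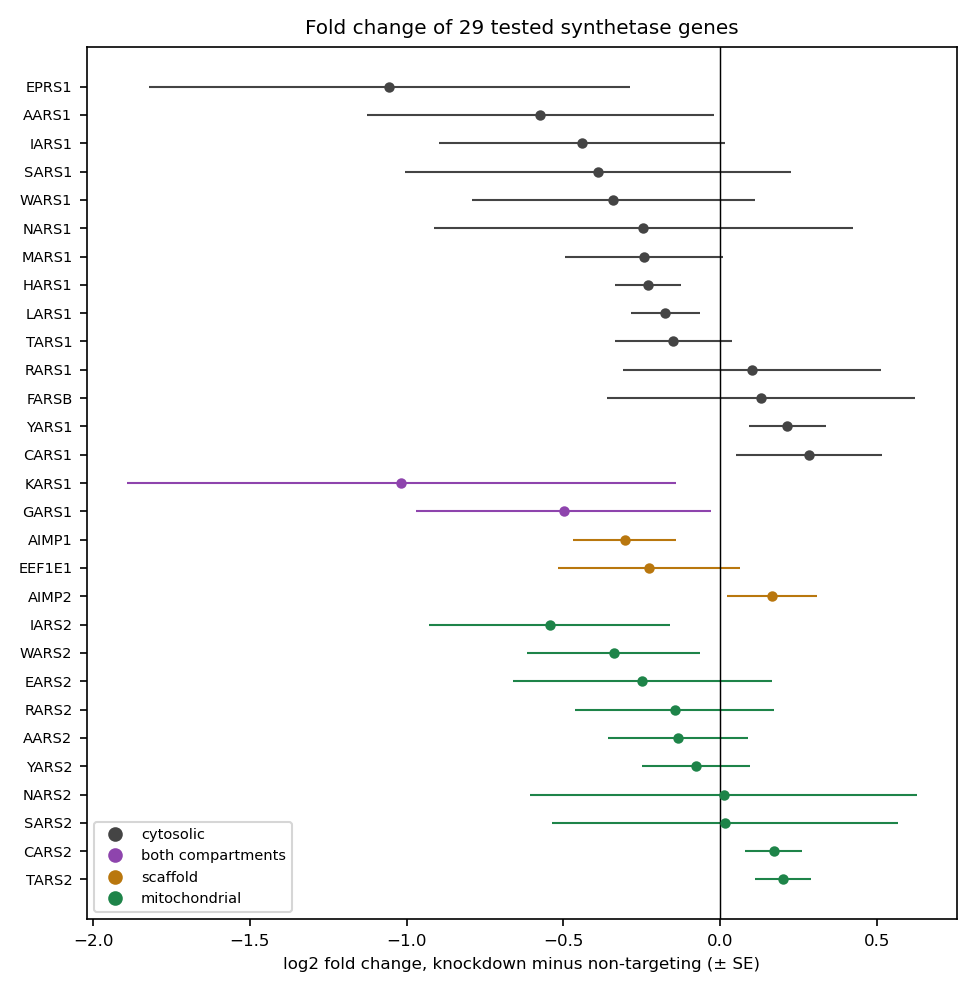
Log2 fold change, knockdown minus non-targeting (horizontal axis), for 29 of the 30 tested genes, coloured by compartment; points are edgeR estimates and bars 1 SE from the log2 CPM of 3 libraries per group. Estimates run from -1.06 for EPRS1 to 0.28 for CARS1, and the largest decreases, EPRS1 and KARS1, carry SEs of 0.77 and 0.88.

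HARS1 and HARS2, the cytosolic and mitochondrial histidyl enzymes, are neighbours that are read away from each other. In the RefSeq table (GRCh38.p14) the start of HARS1 on the minus strand and that of HARS2 on the plus strand lay 84 bases apart, at chr5:140691371-140691454. In GENCODE 44, which has longer models, exons of the pair instead overlap by 108 bases, at chr5:140691430-140691537. HARS1 had 195, 150 and 162 counts in the knockdown and 218, 170 and 207 in the non-targeting libraries, the highest of the family. In CPM this was 102 ± 11.5 and 119 ± 6.85 (SD, n = 3 each), a log2 fold change of -0.23 (SE 0.10; exact permutation p = 0.2). HARS2 had 4, 4 and 4 counts against 9, 1 and 7, and its groups overlapped. The pair shares a start region but was measured at very different levels, with 43.7 to 60.3 TPM for HARS1 and 1.55 to 6.09 TPM for HARS2. Nearly all HARS1 counts (99.9%) lay on transcripts that overlap exons of a gene on the plus strand, and the exons shared with WDR55 at its other end span up to 1090 bases. WDR55 itself had 267 to 331 counts.

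Retained-intron transcripts, which keep an intron and encode no full protein, held a larger share of the family's pooled counts than of the pooled counts of all genes. Pooled shares weigh genes by their counts, so PLLP weighs heavily over all genes, as do HARS1, YARS1 and CARS1 in the family. In GENCODE 44, 29.7% of the synthetase counts were on retained-intron transcripts, against 11.99% of the counts of all genes, and 53.3% were on protein-coding transcripts, against 63.3%. A further 10.6% lay on transcripts marked for nonsense-mediated decay and 6.43% on transcripts with no coding sequence defined. For 27 genes at least 50% of the counts were on protein-coding transcripts, and for 13 they were not. The 4 genes with the largest increases in mean, CARS1, YARS1, TARS2 and CARS2, were all of the second kind. YARS1 had 76.0% of its counts on retained-intron transcripts and 14.6% on coding ones. CARS1 had 86.7% of its counts on 1 retained-intron transcript, ENST00000526890, at 221, 92 and 84 counts against 103, 88 and 110. TARS2 had no count on a coding transcript, with 53.2% on retained-intron transcripts and the rest on one marked for decay. MARS1 had 69.7% of its counts on the decay transcript ENST00000537638, with 70, 68 and 67 counts against 93, 69 and 94. CARS2 had 0.46% on coding transcripts and IARS1 6.64%. TARS1, the cytosolic threonyl enzyme, was the opposite case, with 96.9% of its counts on its main coding transcript. The 137, 83 and 87 counts of TARS1 against 139, 79 and 118 gave a log2 fold change of -0.15 (SE 0.19).

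**Figure D3:**
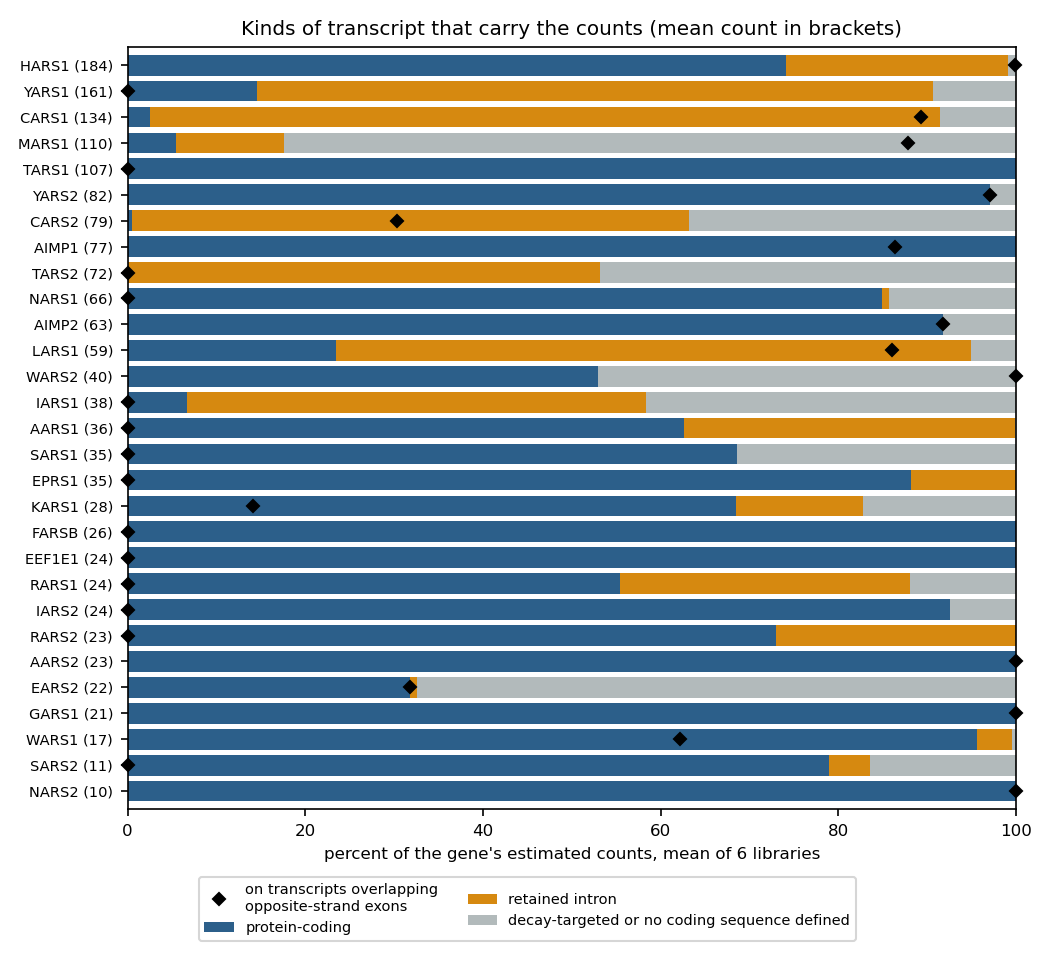
Share of each gene's estimated counts by kind of GENCODE 44 transcript (horizontal axis, percent, mean of 6 libraries) for 29 of the 30 tested genes, ordered by mean count; bars are protein-coding, retained-intron and other transcripts, and diamonds the share on transcripts overlapping exons of an opposite-strand gene. HARS1, TARS1, YARS2, AIMP1 and AIMP2 are mostly protein-coding, while YARS1, CARS1, MARS1, CARS2 and TARS2 are mostly not.

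Direction was also counted by kind of transcript. Tested genes with at least 50% of counts on coding transcripts were lower in 17 of 22 cases (median log2 fold change -0.23), and those under 50% in 4 of 8 (median -0.0013). By library, coding transcripts free of opposite-strand overlap summed to 173, 265 and 265 CPM over the family in the knockdown and to 351, 193 and 296 CPM in the non-targeting libraries. This sum was lowest in knockdown library 1, then in non-targeting library 2, and highest in non-targeting libraries 3 and 1, as was the share of ribosomal protein counts, with knockdown libraries 2 and 3 between them. Retained-intron transcripts ran the other way at the ends, with 361, 302 and 285 CPM against 273, 282 and 286 CPM. Knockdown library 1 was highest and non-targeting library 1 lowest. Their share of the synthetase counts was 40.5%, 29.7% and 28.1% in the knockdown and 23.0%, 30.7% and 26.5% in the non-targeting libraries. Over all genes the retained-intron share was also highest in knockdown library 1, at 14.1%, with 11.1% to 12.4% in the others. The part of these library differences in the fold changes above was not tested.

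**Figure D4:**
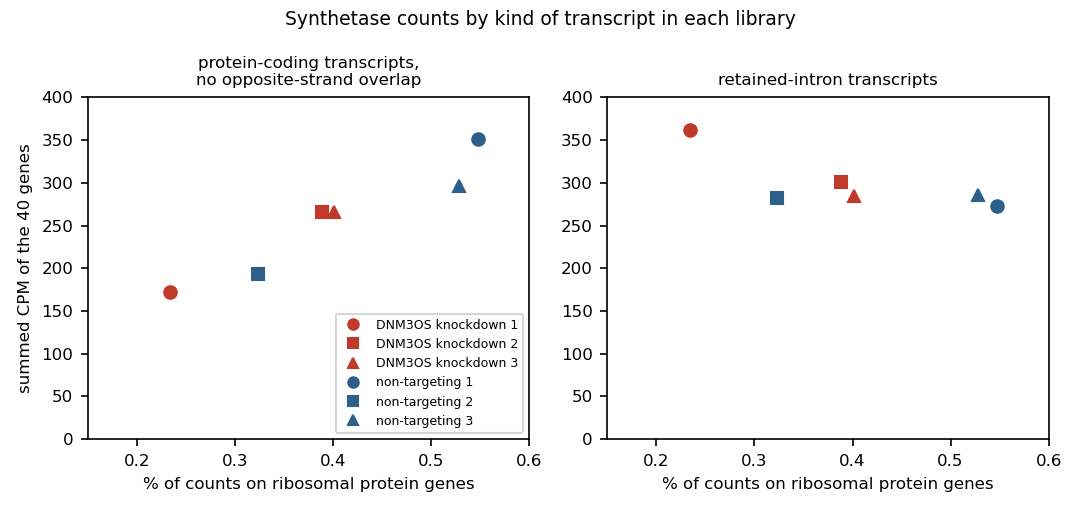
Summed CPM of the 40 genes (vertical axis) on coding transcripts without opposite-strand overlap (left) and on retained-intron transcripts (right) against the percent of each library's counts on ribosomal protein genes (horizontal axis), 1 point per library. On the left knockdown library 1 (173 CPM) and non-targeting library 1 (351 CPM) are the ends, with the other 4 libraries between them from both groups; on the right knockdown library 1 is highest at 361 CPM.

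Many of the family's counts lay where a second gene is encoded on the opposite strand. Of the family's pooled counts 48.9% were on transcripts with such an overlap, against 58.3% of the pooled counts of all genes. The second share also weighs genes by their counts, so it is not that of a typical gene. Such a transcript was quantified for 19 of the 40 genes, and 16 had at least 50% of their counts there. The 19 had a median of 28.0 counts and 26.0 TPM, and the 21 without had 23.8 counts and 14.0 TPM. The transcript models used by the authors differed in length from GENCODE 44 in 92 of 428 synthetase transcripts. For 21 of the 40 genes the transcript with the most counts was among them. The difference was large for HARS1 (3334 bases against 1948 in GENCODE 44) and TARS1 (4314 against 2672) and small for YARS2 (2122 against 2117). The overlaps and kinds of transcript given here are those of the newer models and may not describe the sequence that was counted.

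Some partners were protein-coding genes. AIMP2 (91.8% of counts on overlapping transcripts) ends against EIF2AK1, the haem-regulated eIF2α kinase, with 532 shared bases, and EIF2AK1 had 750 to 1084 counts where AIMP2 had 53 to 77. AIMP1 (86.4%) starts against TBCK with up to 387 bases in the quantified transcripts and up to 476 over all annotated ones. MARS1 (87.8%) overlaps DDIT3 over up to 355 bases and ARHGAP9 over up to 519 bases. DDIT3, the stress transcription factor CHOP, had 16, 21 and 21 counts against 37, 10 and 19. AARS2 (all counts), the mitochondrial alanyl enzyme, overlaps TMEM151B and an unnamed protein-coding gene over the same 235 bases. AARS2 had 35, 16 and 16 counts against 25, 26 and 20. TMEM151B had 7 to 24 counts and the unnamed gene 53 to 85. HARS2 (71.5%) overlaps HARS1 itself over 108 bases. WARS1 (62.2%), the tryptophanyl enzyme, overlaps WDR25 and a long noncoding gene and had 18, 8 and 18 counts against 28, 10 and 18. Smaller shares of counts lay on transcripts overlapping the protein-coding genes ING1 for CARS2 (30.3%), UBFD1 for EARS2 (31.8%) and TERF2IP for KARS1 (14.2%). For YARS1 the overlap with S100PBP lies in transcripts that were not quantified, so no count of YARS1 lay on an overlapping transcript.

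Further partners were long noncoding genes that had no quantified transcript. CARS1 (89.4% of counts on overlapping transcripts) overlaps CARS1-AS1, FARSA (82.4%) overlaps FARSA-AS1 and WARS2 (all counts) overlaps WARS2-AS1. LARS1 (86.0%), the leucyl enzyme, YARS2 (97.0%), the mitochondrial tyrosyl enzyme, and NARS2 (all counts), the mitochondrial asparaginyl enzyme, overlap unnamed noncoding genes. LARS1 had 72, 52 and 43 counts against 72, 50 and 64, YARS2 had 92, 63 and 83 against 89, 68 and 94, and NARS2 had 15, 11 and 6 against 18, 10 and 3. Their log2 fold changes were -0.17, -0.08 and 0.01, and for each of them the groups overlapped. Without any overlapping transcript 20 synthetase genes could still be tested, with 7 of 11 cytosolic enzymes lower (median -0.18) and 3 of 6 mitochondrial enzymes lower (median 0.06).

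ATF4 binds the sequence TGATGNAA, known as the amino acid response element, and the promoters were searched for it because several synthetases are ATF4 targets. RefSeq promoter windows (GRCh38.p14) matched 33 of the 40 genes. The motif was present on either strand within 250 bases before the start in 4 of the 33 (12.1%), against 3.89% of all 27305 gene symbols. With the 50 bases after the start included, the 33 genes gave 8 with the motif (24.2%), AARS1, CARS1, GARS1, IARS1, MARS1, NARS1, TARS1 and YARS2, against 4.46% of all symbols. A match is a run of letters and not a measured site. The 4 matches before the start are shown on the strand of each gene, 5′ to 3′, with the motif or its reverse complement in capitals.
AARS1, chr16:70289675-70289704, minus strand: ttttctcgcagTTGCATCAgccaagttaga
GARS1, chr7:30594834-30594863, plus strand: ttacgcggcgaTTTCATCAtgctccgagcc
IARS1, chr9:92293698-92293721, minus strand: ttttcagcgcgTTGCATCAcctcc
YARS2, chr12:32756076-32756105, minus strand: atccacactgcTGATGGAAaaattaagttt

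The motif began 187, 33, 13 and 197 bases before the start of AARS1, GARS1, IARS1 and YARS2. AARS1 and IARS1 carried the same 8 letters. All 4 genes had lower means in the knockdown, with a median log2 fold change of -0.47, and of the 22 tested genes with a window but no motif in it 14 were lower, with a median of -0.23. Of the 8 genes with the motif in the longer window 7 were lower (median -0.24), and of the 18 without it 11 were lower (median -0.23). Without knockdown library 1 the values of AARS1, GARS1, IARS1 and YARS2 were -0.15, -0.11, -0.37 and 0.014. The groups of all 4 genes overlapped, so no difference beyond the spread between libraries was measured for them.

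The genes around the synthetases in amino acid metabolism were also described, and 0 genes were called in any of their lists, although some had large differences in mean with wide spread. The largest, chosen after their values were seen, were SLC38A2, a glutamine and alanine transporter (log2 fold change -0.96, SE 0.68), and AARSD1, an editing protein for mischarged alanyl-tRNA (-0.91, SE 0.35). In the ATF4 and amino acid response list 6 of 10 tested genes were lower (median -0.10). ATF4 had 22, 35 and 36 counts against 51, 11 and 59, a log2 fold change of -0.28 (SE 0.77), with the controls spanning the knockdown values. ASNS, asparagine synthetase and a standard ATF4 target, had 45, 16 and 7 counts against 27, 21 and 18 (log2 fold change -0.08, SE 0.56). DDIT3 had a log2 fold change of -0.12 (SE 0.53). CHAC1, TRIB3 and SESN2, further ATF4 targets, were below the filter, with 4 to 10, 4 to 20 and 1 to 2 counts per library. No member of this list was separated downwards, and only NUPR1, a stress-induced nuclear protein, had all knockdown values above the controls.

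Among genes of amino acid synthesis and one-carbon metabolism 8 of 12 tested were higher (median 0.13), and among amino acid transporters 7 of 9 were lower (median -0.18). The eIF2α kinase and GCN2 list had 6 of 8 lower (median -0.24). EIF2AK4, the sensor of uncharged tRNA, had 254, 195 and 181 counts against 245, 202 and 204, a log2 fold change of -0.06 (SE 0.08), and its groups overlapped. Genes of tRNA maturation and charging split evenly, 11 lower and 10 higher of 21 (median -0.03). AARSD1 had 22, 6 and 12 counts against 24, 22 and 27, with an adjusted p of 1 in edgeR's exact test. Over these lists, AARSD1, PSTK and the transporter SLC1A5 had all knockdown values below the controls in CPM, where 3.56% of all tested genes did, and NUPR1, GATB and GPT2 had all of them above, where 4.42% did.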

How the data were processed

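RNA of SKOV3 cells was sequenced in 3 DNM3OS siRNA and 3 non-targeting libraries, from TruSeq Stranded Total RNA with Ribo-Zero Gold. The authors quantified reads against GRCh38 transcripts with kallisto 0.43.0 (submitters' processing notes) and deposited estimated counts and TPM per transcript; strand setting and transcript release are not given in the sources used here. Of 173259 transcripts, 155518 matched GENCODE 44 and were summed to genes; 17741 (4.78% to 6.38% of counts) were left out. Counts were rounded, filtered with filterByExpr, scaled by TMM and compared with edgeR 4.0.16's exact test (R 4.3.3) and Benjamini-Hochberg adjustment; a gene was called at adjusted p below 0.05 and at least 2-fold. The biological coefficient of variation was 0.232. SEs are from log2 CPM, with a prior count of 2, and CPM uses TMM-scaled library sizes. Nothing says that replicates were separate cultures, so p-values measure only the spread between these libraries, which may be technical. No pair of libraries agreed within sampling noise (chi-square per degree of freedom at least 2.15). In simulated data, 198 of 200 genes changed by 2 on the log2 scale among 11814 were recovered, with 18 other calls. That planted change was larger than every log2 fold change of the tested synthetase genes (-1.06 to 0.28). The simulation therefore cannot say how often changes of their size would be found. Changes were planted only in genes above a limit on the expected count. Recovery was therefore not tested for the synthetase genes with the fewest counts. Counting intervals and the floor of 3 counts cover counting error only.

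The genes, lists and tests were chosen with earlier results of these data known. Values are given in full for genes called or with groups that do not overlap, the 3 largest increases and decreases per compartment, the 6 highest by TPM, genes with at least 50% of counts on transcripts overlapping opposite-strand exons, the pair of histidyl genes and the scaffolds; from the other lists, called genes and ATF4, ASNS, DDIT3, CHAC1, TRIB3 and SESN2. TARS1, EIF2AK4, the genes of other lists with large differences or groups that do not overlap, and the low-count genes were named beside these. Promoter sequences are from RefSeq (GRCh38.p14). Alternatives were DESeq2 1.42.0, the quasi-likelihood fit of edgeR (once blocked by replicate number), RLE scaling, length-scaled counts, other filters, subsets of transcripts and leaving out libraries. Of the 40 genes, 2 enter the sums and counts but are not reported by name here.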

Additional observations from a re-analysis of the deposited data

How the results depend on the processing

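No synthetase gene was called under any alternative run. Replicate numbers did not pair the libraries (correlations of same-numbered libraries -0.40, -0.34 and 0.23); with the replicate block, the quasi-likelihood test gave 0 calls and medians of -0.23 (cytosolic) and -0.10 (mitochondrial). Genes with groups that do not overlap numbered 2, against 1 with RLE scaling or a 1 CPM filter, 5 with length-scaled counts, 0 on protein-coding transcripts only and 8 without knockdown 1 and non-targeting 1 together (added after seeing the data; the extremes of the cytosolic genes, so that a shift of the family towards 0 was fixed by the choice). Leaving out 1 library gave 1 (without non-targeting 3) to 10 (without non-targeting 2), and fewer libraries separate more easily; without knockdown 1, 2 or 3 it was 5, 5 and 6. Cytosolic genes with a lower mean numbered 11 of 15, against 7 of 11 without overlapping transcripts, where fewer genes are tested, and 8 to 13 without 1 library. Mitochondrial ones numbered 6 of 10, against 10 of 17 with no filter, 3 of 6 without overlapping transcripts, 2 of 10 without both first libraries and 5 to 8 without 1 library. Over single omissions the cytosolic median ran from -0.36 to -0.01 and the mitochondrial from -0.23 to -0.0086; it was 0.09 with length-scaled counts. At an unadjusted p below 0.05 the count was 0, 1 with DESeq2, no filter or the 1 CPM filter, 2 with length-scaled counts and at most 4 without 1 library.

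Some log2 fold changes changed sign, and the cause was not tested: with length-scaled counts EARS2 (0.17) and WARS1 (0.54); without overlapping transcripts EARS2 (0.13) and SARS2 (-0.011); on protein-coding transcripts NARS1 (0.0026); without both first libraries CARS1 (-0.0076), EARS2 (0.20), FARSB (-0.25), NARS1 (0.46), WARS1 (0.062), WARS2 (0.036) and YARS2 (0.015). Leaving out 1 library turned AARS2 (-0.36 to 0.0086), EARS2 (-0.52 to 0.056), FARSB (-0.52 to 0.41), NARS1 (-0.54 to 0.18), NARS2 (-0.44 to 0.60), RARS1 (-0.20 to 0.49), SARS2 (-0.39 to 0.42), WARS1 (-0.65 to 0.019) and YARS2 (-0.23 to 0.014). Larger moves without a change of sign were RARS1 from 0.10 to 1.01 and IARS2 from -0.54 to -0.11 with length-scaled counts, LARS1 from -0.17 to -1.07 on protein-coding transcripts and AIMP1 from -0.30 to -0.72 without overlapping transcripts.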
